A study of Drosophila melanogaster with 6 samples.

Results

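The antibacterial peptide genes of the Imd type are the attacins AttA, AttB, AttC and AttD, the diptericins DptA and DptB, the cecropins CecB and CecC, the defensin gene Def and the drosocin gene Dro. They were looked up among the probe sets that the platform annotation assigns to exactly 1 gene. Of these 10 genes, 4 had such a probe set, 1 each: DptB, Def, AttD and CecB. The other 6, namely AttA, AttB, AttC, DptA, CecC and Dro, had none and are left out of every count of members. The array as a whole named 10844 genes in this way.

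The study measured messenger RNA of fly heads with 6 Affymetrix arrays in 2 groups of 3. In the wild type group, the strain is stated as CS for replicates 1 and 3 and is not stated for replicate 2. The tim-MJD group combined Tim-gal4 with UAS-MJD, written as MJD78Q (a polyglutamine length of 78) for replicates 1 and 2 and without a length for replicate 3. All flies were 2 to 4 days old, had spent 3 days in light-dark cycles and were taken at Zeitgeber time 16. Tim-gal4 is a driver line built on the promoter of timeless, a clock gene, and MJD is the polyglutamine protein of Machado-Joseph disease. The samples include no flies with only the driver or only the transgene, and effects of driver, transgene and strain background cannot be told apart. Nothing in the labels ties replicates to separate collections of flies, and the p-values therefore measure only the spread between these arrays, which can be technical.

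In the Imd pathway, peptidoglycan of Gram-negative bacteria binds the recognition proteins PGRP-LC and PGRP-LE. The adaptor imd then recruits Fadd and the caspase Dredd, the kinase Tak1 activates the IKK complex, and the NF-kappaB factor Relish, encoded by Rel, enters the nucleus and switches on peptide genes. In adult flies much of the peptide in the hemolymph comes from the fat body, some of which lies in the head, and epithelia make peptides locally. Attacins, diptericins and drosocin act mainly against Gram-negative bacteria, cecropins break bacterial membranes, and defensin acts mainly against Gram-positive bacteria.

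Values are log2 of the deposited intensity plus 16 after quantile normalization, unless another scale is named. The log base behind the deposited intensities is not settled. Should the depositors have raised e, not the number 2, to a log2 summary, a difference between bright values shrinks by a factor of about 0.693. The highest of 23 negative control probe sets read between 5.59 and 5.69 on the 6 arrays, and 40.2% to 44.4% of probe sets lay above it. All arrays of a group were scanned on the same day and the groups on different days, which means that the day of the scan cannot be told apart from the genotype. Of the markers of head tissue, the neuronal and photoreceptor genes were above the controls on all arrays in 4 of 5 measured cases. The largest difference among them was that of the synaptic gene nSyb (1.63, limma, adjusted p = 0.0578, groups not overlapping). Those of elav, brp and trp were 0.04, 0.07 and -0.08. Of 4 measured glial markers 2 were above the controls on all arrays, Gs2 and alrm. Both read lower on every tim-MJD array than on every wild type array, by -1.42 and -0.90 (adjusted p = 0.153 and 0.0719). Nearer the controls, repo differed by -0.13. moody went the other way, by at least 0.14 against the control level, and exceeded the controls on 2 tim-MJD arrays and no wild type array. Of the tested markers, 0 of 4 neuronal and photoreceptor ones and 0 of 4 glial ones were called in limma. Over all tested probe sets 2.48% were called. At an unadjusted p under 0.05 there were 1 and 2, beside 15.6% of all tested. The groups did not overlap for 1 and 2, beside 21.9% of all tested. The part of these cell types in the peptide differences was not tested.

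DptB was the member whose groups lay far apart. It encodes a diptericin, a glycine-rich peptide secreted into the hemolymph. The DptB probe set read 5.62, 6.61 and 5.43 on wild type arrays 1 to 3, above the negative controls on 2 of the 3. It lay near their level on wild type 1 (5.62 against 5.59) and below it on wild type 3. On wild type 2 it stood clear of them (6.61 against 5.63). On tim-MJD arrays 1 to 3 it read 11.36, 9.08 and 12.35. Every tim-MJD array was above every wild type array, and the lowest tim-MJD value was that of tim-MJD 2. In the deposited intensities this was 30.7, 83.9 and 29.3 against 2519, 540 and 4291. On wild type arrays DptB lay between the 47.8 and 79.4 percentile of all probe sets, and on tim-MJD arrays between the 93.3 and 98.0 percentile.

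The mean of DptB was 5.89 ± 0.63 in wild type and 10.93 ± 1.67 in tim-MJD (SD, n = 3), a difference of 5.04 ± 0.89 (SE of limma's fit; 95% interval 2.81 to 7.28). This difference ranked 20 among the 8379 probe sets tested, counted from the largest positive difference. It did not pass the threshold of 0.05 after adjustment over all of them (limma, adjusted p = 0.0586, unadjusted p = 0.00184). The side of the threshold depended on tim-MJD 2. Without tim-MJD 2 the difference was 5.96 and passed (adjusted p = 0.0158), and without any other single array it was 4.41 to 5.36 and did not pass. Within fluidics modules 1 and 2 of the washing station, each of which handled 1 array of each group, the difference was 4.76 and 3.65. With 3 arrays against 3, an exact permutation test of a single gene cannot give a p below 0.1. In whole heads, a change in the number of cells of a type and a change in RNA per cell cannot be told apart.

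RNA quality differed between the arrays. The 3' control probe set of eIF-4a exceeded the 5' one by 9.63 log2 units on wild type 2, the wild type array with the highest DptB. On the other 5 it did so by 2.57 to 3.71. These gaps are in log2 of the deposited intensity, with nothing added and no normalization. The 18S ribosomal RNA control was lower in wild type 1 (12.7) and wild type 2 (12.0) than in the other 4 arrays (16.7 to 17.4). With these measures as covariates the DptB difference was 5.56 (adjusted p = 0.146) and 5.43 (adjusted p = 0.251).

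**Figure D1:**
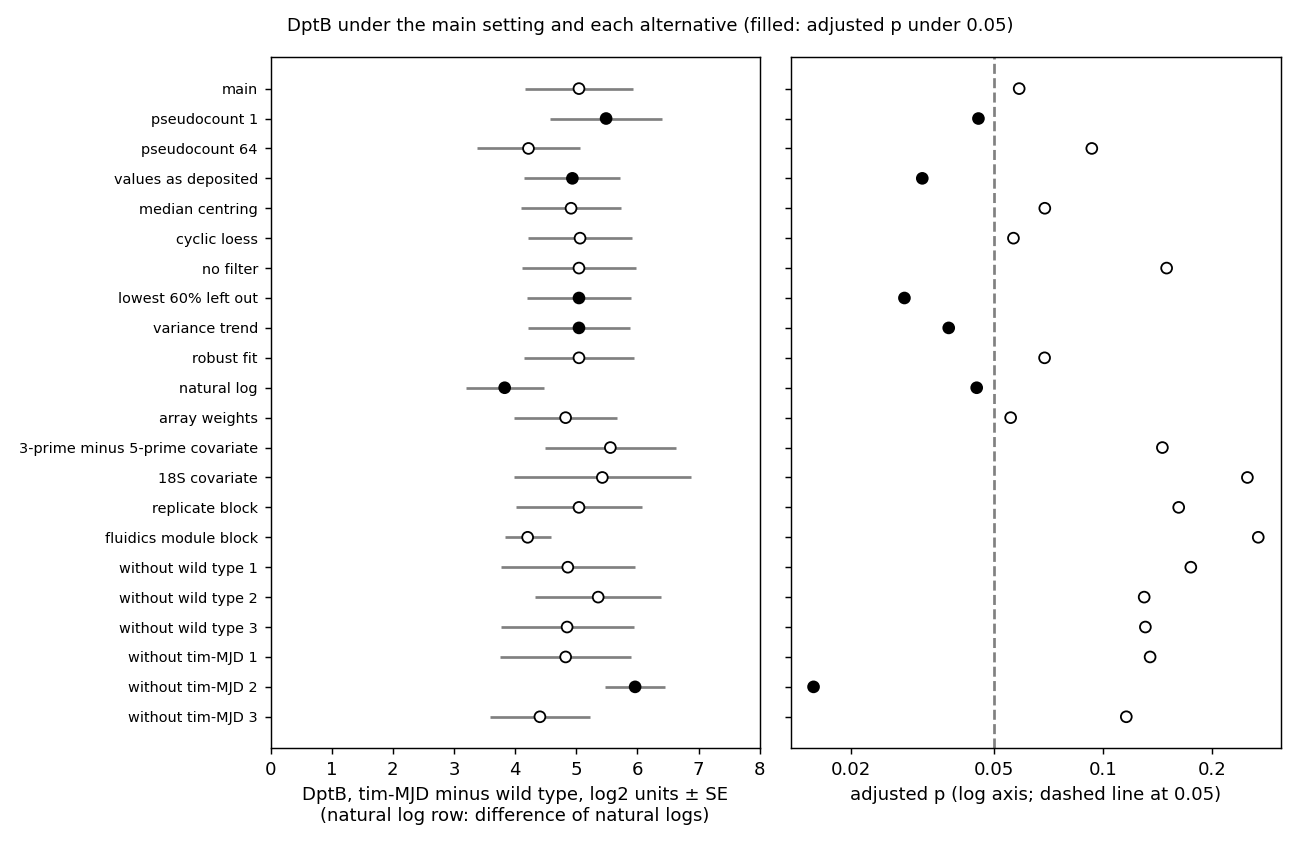
Difference of DptB between tim-MJD and wild type heads (left, log2 units ± SE; natural log setting in differences of natural logs) and its adjusted p in limma (right, log axis) under the main setting and 21 alternatives, with filled points where the adjusted p is under 0.05. The difference lay between 4.20 and 5.96 log2 units outside the natural log setting, and was 3.83 as a difference of natural logs in that setting. Its adjusted p lay between 0.0158 and 0.269 in all of them.

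Def was well measured in both groups and its groups overlapped. The Def probe set read 8.59, 6.87 and 7.27 on wild type 1 to 3 and 6.65, 7.63 and 7.31 on tim-MJD 1 to 3, above the negative controls on every array. Its highest value was on wild type 1 and its lowest on tim-MJD 1. The means were 7.58 ± 0.90 and 7.20 ± 0.50 (SD, n = 3), and the difference was -0.38 ± 0.51 (SE; limma, adjusted p = 0.808), with a 95% interval from -1.67 to 0.91. Without wild type 1 it was 0.12.

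CecB was not detectable at the sensitivity of these arrays, and AttD lay at or near control level. AttD, an attacin gene apart from the AttA and AttB pair, read 5.48 to 5.54 in wild type and 5.49 to 5.86 in tim-MJD. Only the 5.86 of tim-MJD 2 exceeded the controls of its array. The fitted difference was 0.11 ± 0.11 (SE; limma, adjusted p = 0.733). CecB, one of a row of neighbouring cecropin genes, lay at or below the controls on all 6 arrays and was left out by the filter on dim probe sets. It read 4.98, 5.02 and 5.04 in wild type and 5.07, 5.27 and 5.63 in tim-MJD. Since both groups were at control level, no size is given for CecB.

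Counted over the members, 0 of the 3 probe sets that passed the filter were called by limma, where 2.48% of all tested probe sets were. At an unadjusted p under 0.05 it was 1 of 3, DptB, beside 15.6% of all tested. The groups did not overlap, with tim-MJD higher, for 1 of 3 members tested, beside 10% of all tested. The median difference was 0.11 over these 3 members and 0.21 over all 4 measured, beside -0.0026 over all tested probe sets. The 0.11 is the value of AttD itself and the 0.21 lies between AttD and CecB, so both medians rest on genes near control level and describe no shift of the group. Among the tested members, differences ran from -0.38 for Def to 5.04 for DptB, whose 95% intervals did not overlap.

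**Figure D2:**
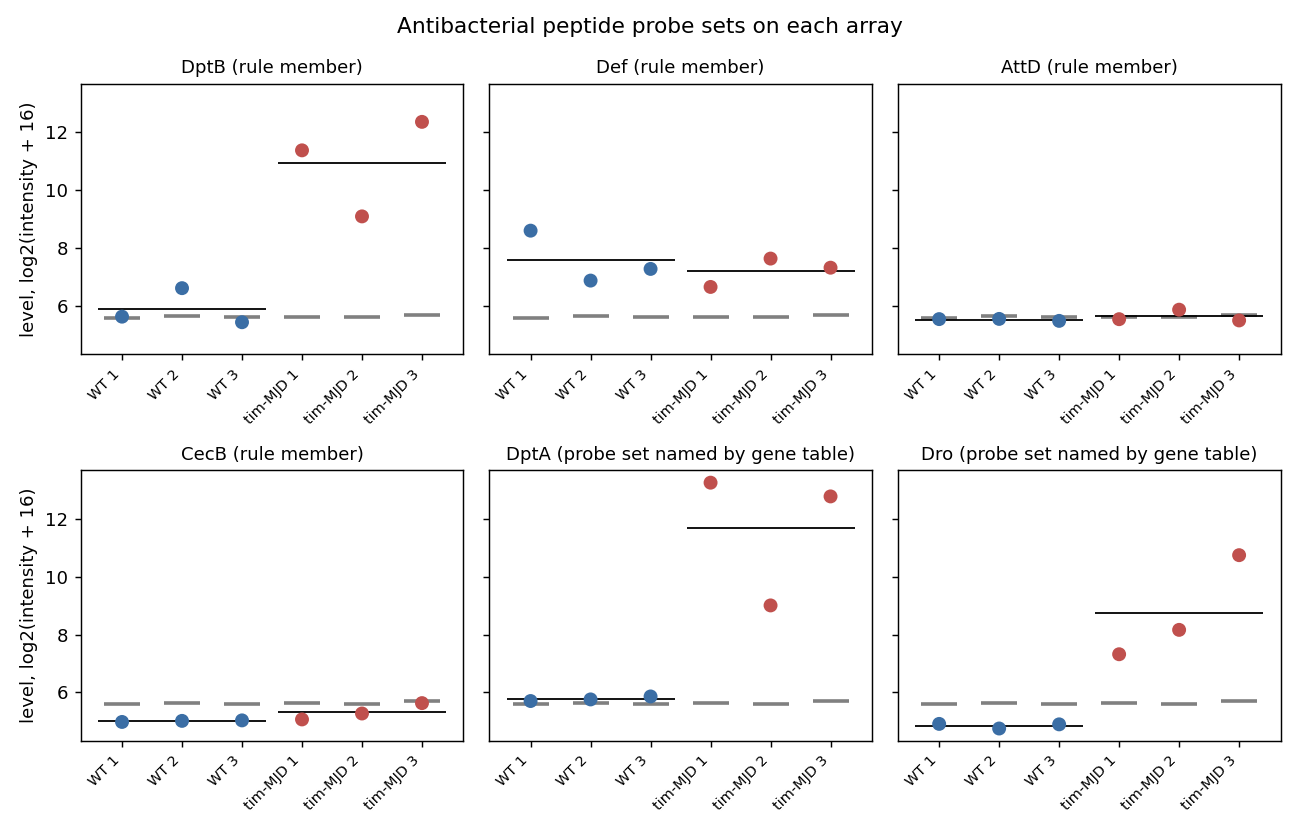
Level of each antibacterial peptide probe set on each array, as log2 of the normalized intensity plus 16, for wild type (blue) and tim-MJD (red), with the group mean as a black line and the highest negative control of each array as a grey dash. DptB, DptA and Dro lie between 7.32 and 13.24 on the tim-MJD arrays, while Def overlaps between the groups and AttD and CecB stay near or below the controls.

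A pair of the genes left out could still be seen on the arrays. The platform annotation supplied here does not list the probe sets 143443_at and 143609_at. The current gene table carries these probe set names among the synonyms of DptA and Dro. This was found after the values had been seen, and both stay outside the counts above. The table's synonyms name 133 probe sets of this array in all. The annotation covers 113 of them, and names the same single gene for 111 and that gene among several for the other 2.

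DptA, the other diptericin gene, lies next to DptB with no gene between them in the gene table. Its probe set read 5.70, 5.76 and 5.86 on wild type 1 to 3 and 13.24, 9.0 and 12.77 on tim-MJD 1 to 3. The wild type values were just above the controls, and tim-MJD 2 was again the lowest of its group. The means were 5.78 ± 0.08 and 11.67 ± 2.32 (SD, n = 3), a difference of 5.90 ± 1.15 (SE; limma, adjusted p = 0.0732), which ranked 17 of 8379. Without tim-MJD 2 it was 7.23 (adjusted p = 0.000844). Within modules 1 and 2 it was 7.48 and 3.14. The diptericins are related in sequence, and whether transcripts of one bind the probes of the other was not tested.

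Dro encodes drosocin, a proline-rich peptide that blocks bacterial protein synthesis. Its probe set read 4.92, 4.76 and 4.90 on wild type 1 to 3, below the negative controls on all of them, and 7.32, 8.16 and 10.74 on tim-MJD 1 to 3, above the controls on all. The groups did not overlap, and here tim-MJD 3 was the highest and tim-MJD 1 the lowest of the group. Against the control level the difference was at least 3.13, and without tim-MJD 3 at least 2.13. The fitted difference, between measured means of 4.86 and 8.74, was 3.88 (limma, adjusted p = 0.1). Without tim-MJD 3 the fitted difference was 2.94 (adjusted p = 0.0327). These p-values belong to fits against wild type readings below the controls, and the bounds were not tested. Dro passed the filter on dim probe sets only through its tim-MJD values.

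The tim-MJD arrays did not follow the same order for these peptides. Above the wild type mean, DptB stood at 5.48, 3.20 and 6.46 on tim-MJD 1 to 3 and DptA at 7.47, 3.23 and 6.99, so both diptericins were lowest on tim-MJD 2. Dro stood at least 1.71, 2.55 and 5.13 above the wild type control level on tim-MJD 1 to 3, and the antifungal peptide gene Mtk, metchnikowin, stood 3.97, 6.14 and 7.58 above its wild type mean, so these were lowest on tim-MJD 1. Drs, the antifungal peptide drosomycin, stood at 8.90, 10.04 and 8.90, highest on tim-MJD 2.

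Of the 4 other peptide genes with a single-gene probe set, Drs (difference 9.28, adjusted p = 0.00118), Mtk (5.90, adjusted p = 0.0439) and Listericin, an antibacterial peptide gene (1.60, adjusted p = 0.0161), rose in limma. Drsl5, a relative of Drs, read 0.22 higher (adjusted p = 0.757). Calls were thus 3 of 4, beside 2.48% of all tested probe sets. Mtk lost its call in 5 of the 6 fits that omit a single array (highest adjusted p = 0.138) and Listericin in 4 (highest 0.0720). Over all 21 alternatives Mtk lost it in 14 (adjusted p up to 0.284) and Listericin in 6 (up to 0.309). Whether the response of Drs or Mtk differs from that of DptB was not tested. CecA1, CecA2 and edin had no single-gene probe set.

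**Figure D3:**
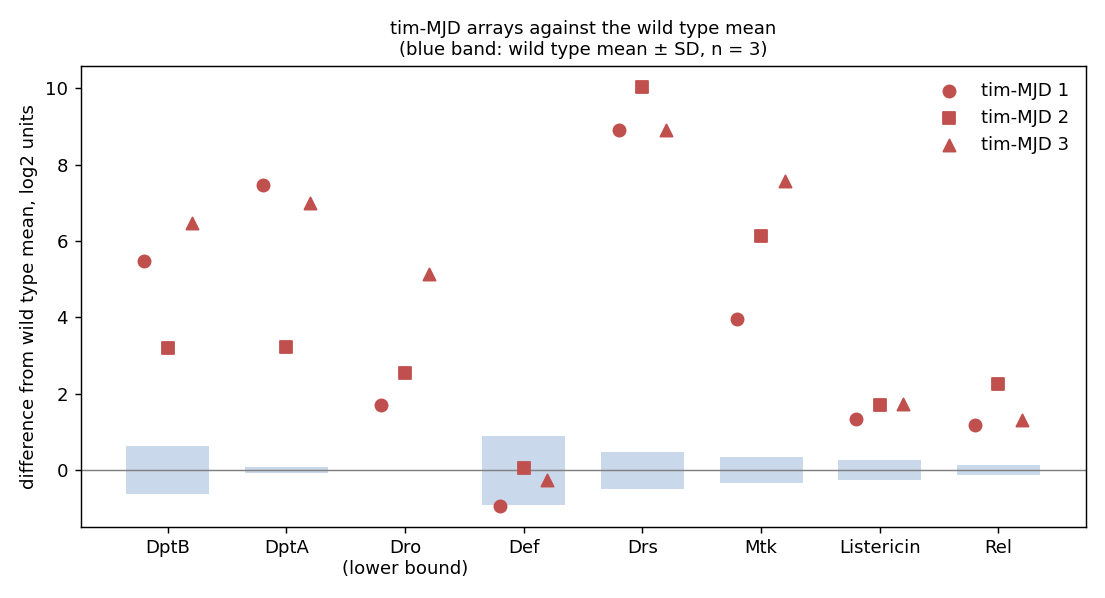
Difference of each tim-MJD array from the wild type mean in log2 units for diptericins, drosocin, defensin, 3 other peptide genes and Rel, with the blue band showing the wild type mean ± SD (n = 3) and Dro drawn, without a band, as a lower bound against the control level. DptB and DptA have their lowest point on tim-MJD 2 (3.20 and 3.23), where Drs and Rel have their highest (10.04 and 2.26), and Def straddles 0.

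Fat body marker genes also differed between the arrays. Their summed normalized intensity was 2.56e+06 to 3.82e+06 on wild type arrays, 2.29e+06 and 2.37e+06 on tim-MJD 1 and 3, and 198452 on tim-MJD 2, which within the tim-MJD group also had the lowest DptB and DptA. All wild type arrays read lower than tim-MJD 2 for both diptericins. The sum is carried by the yolk protein genes Yp1, Yp2 and Yp3, and its low value on tim-MJD 2 follows them. Yp2 read 10.02 on tim-MJD 2, against 18.36 and 18.71 on tim-MJD 1 and 3. The sum therefore describes these genes and is no measure of the amount of fat body. Lsp2 and apolpp were also lowest on tim-MJD 2, while Tsf1 was highest there. Of 12 measured markers, Obp99b fell by 5.70 and Tsf1, the iron carrier transferrin, rose by 2.90 (limma, adjusted p = 0.0478 and 0.00303). The remaining 10 were not called, where 2.48% of all tested probe sets were called. At an unadjusted p under 0.05 there were 4 of 12, beside 15.6% of all tested. The groups did not overlap for 1 marker higher and 4 lower in tim-MJD, beside 21.9% of all tested. The median difference of the 12 markers was -1.48, and 10 of them, among them Lsp2 and apolpp, were above the controls on all arrays. The other 2, the mainly larval genes Fbp1 and Fbp2, were at control level throughout. The part of the fat body in the peptide differences was not tested.

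Other possible sources were read in the same way. Of 13 measured hemocyte markers 0 were called in limma, beside 2.48% of all tested, and 5 had an unadjusted p under 0.05, beside 15.6%. Those 5 were split. NimC4 (at least 1.48 against the control level), Col4a1 (1.05) and vkg (0.92) were higher in tim-MJD. Sr-CI (-0.61) and NimC1 (-0.27) were lower. NimC4 did not exceed the controls on any wild type array and passed the filter only through its tim-MJD values. The median over the 13 markers was -0.06. Summed intensities were 1697 to 2213 in wild type and 2840 to 4367 in tim-MJD, with Col4a1 and vkg, which encode basement membrane collagen, as the largest terms. None of these markers was at control level on all arrays. Of 12 measured gut markers 9 were tested and 0 called, and 3 of the 9 had an unadjusted p under 0.05, beside 15.6% of all tested. These were LysX (at least 0.09 against the control level), LysB (-2.24) and LysP (-3.12). LysX did not exceed the controls on any wild type array and passed the filter only through its tim-MJD values. LysP exceeded them on no tim-MJD array, and its difference is set against readings below them. The median was -1.48 over the 9 tested and -0.63 over the 12 measured. Sums were 2747 to 14018 in wild type and 5515 to 27111 in tim-MJD, the last led by Amy-d, which read 14.68 on tim-MJD 2. Mal-A6, Mal-A8 and Npc2d of that list were at control level throughout. Their part in the peptide differences was not tested.

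Among the genes of the Imd pathway itself, 26 of 32 listed genes had a single-gene probe set, 21 passed the filter and 0 were called in limma, beside 2.48% of all tested. At an unadjusted p under 0.05 there were 4 of 21, Rel, ben and akirin higher and PGRP-SB1 lower, where 15.6% of all tested passed. akirin was named after its value was seen. The groups did not overlap for 6 of 21 genes, 5 higher and 1 lower in tim-MJD, beside 21.9% of all tested. The median difference of the 21 genes was 0.07.

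Rel, the NF-kappaB factor at the end of the pathway, had the largest difference of the pathway genes tested. It read 6.63, 6.85 and 6.85 on wild type 1 to 3 and 7.96, 9.04 and 8.08 on tim-MJD 1 to 3. All tim-MJD arrays were above all wild type arrays, and tim-MJD 2 was the highest. The means were 6.78 ± 0.13 and 8.36 ± 0.59 (SD, n = 3), a difference of 1.58 ± 0.30 (SE; limma, adjusted p = 0.0719). Without tim-MJD 2 it was 1.24 and passed (adjusted p = 0.0165). Within modules 1 and 2 it was 1.11 and 2.19.

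Of the receptors, PGRP-LC and PGRP-SD had no single-gene probe set. PGRP-LA, a membrane protein of the recognition family, differed by 0.31 ± 0.13 (SE; limma, adjusted p = 0.324). PGRP-LE, which recognises peptidoglycan inside and outside the cell, read close to the controls in wild type and differed by 0.20 ± 0.10 (adjusted p = 0.453). Both had all tim-MJD arrays above all wild type arrays, by a narrow gap (6.94 against 6.90 for PGRP-LA and 5.69 against 5.66 for PGRP-LE).

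Of the signalling genes, 8 of 10 measured were tested. The adaptor imd read 6.74, 6.77 and 8.20 in wild type and 6.85, 6.02 and 5.32 in tim-MJD, overlapping groups with a difference of -1.17 ± 0.56 (SE; limma, adjusted p = 0.42). Without wild type 3 it was -0.70. Uev1A, a ubiquitin conjugation cofactor, differed by 0.95 ± 0.75 with wild type 2 lowest. It was 0.17 without wild type 2 and 1.68 without wild type 3, and reversed with either RNA quality covariate (-0.0076 and -0.71). Its partner enzyme ben differed by 0.74 ± 0.23 (adjusted p = 0.199) and akirin, a nuclear cofactor of Relish, by 0.66 ± 0.23 (adjusted p = 0.244). Fadd and IKKbeta lay at control level on all arrays, and Dredd exceeded it on wild type 1 only.

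Of the genes listed here as negative regulators of the pathway, 10 of 13 measured were tested. PGRP-SB1, a secreted peptidoglycan-cleaving protein that is itself an immune-induced gene, read 10.66, 9.60 and 10.96 in wild type and 9.37, 9.37 and 9.08 in tim-MJD. All tim-MJD arrays were below all wild type arrays, by -1.13 ± 0.37 (SE; limma, adjusted p = 0.218), opposite in sign to DptB. Without wild type 2 the difference was -1.53 and passed (adjusted p = 0.0334). The amidase PGRP-LB differed by 0.07 (adjusted p = 0.825), the inhibitor pirk by 0.0025 (adjusted p = 0.997), PGRP-LF by 0.14 (adjusted p = 0.741) and the transcriptional repressor nub by -0.14 (adjusted p = 0.514). pirk and PGRP-LB, known targets of Relish, were above the controls on every array. For pirk the margin was narrow, with readings of 5.71 to 5.89 against control levels of 5.59 to 5.69. This limits what can be read of a change in pirk. The same holds for dnr1, CYLD, trbd and cad, which lay at control level on all arrays. nub exceeded the controls on 2 wild type arrays and no tim-MJD array. PGRP-SC2, left out by the filter, did not exceed the controls on any wild type array and read 5.82, 6.04 and 4.78 on tim-MJD 1 to 3, above the controls on the first 2.

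**Figure D4:**
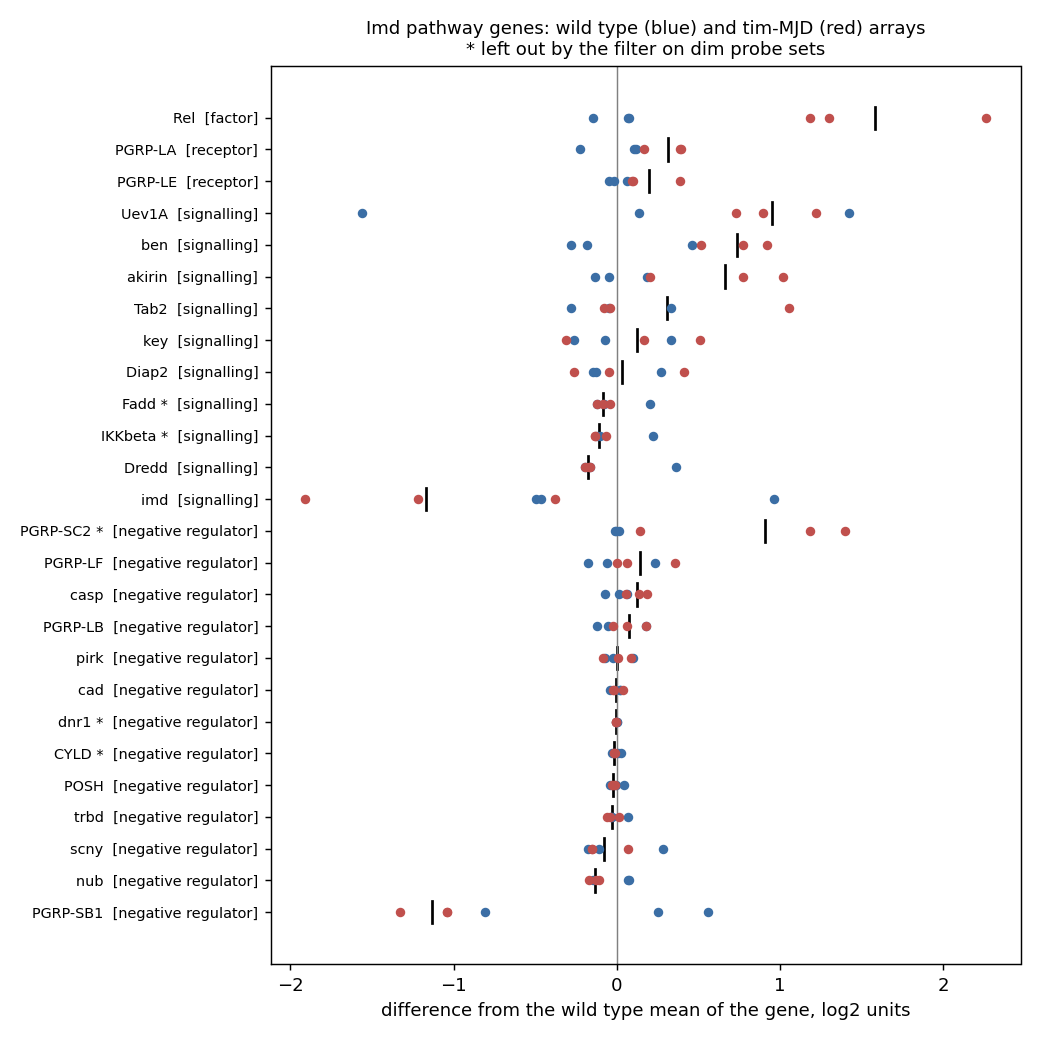
Difference of each array from the wild type mean of the gene, in log2 units, for 26 measured genes of the Imd pathway ordered by role (wild type blue, tim-MJD red, black tick the tim-MJD mean). Rel has its tim-MJD points at 1.18, 2.26 and 1.30, PGRP-SB1 has all tim-MJD points below the wild type ones, and most negative regulators lie close to 0. Among these, dnr1, CYLD, trbd and cad were at control level on all arrays, which limits what can be read of a change in them.

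Over the 6 arrays, the genes with the pattern most like that of Def were Snmp1, Grip and CG5608 (Pearson r of 0.978, 0.978 and 0.971). These share with Def a highest value on wild type 1 and spanned 0.20 to 0.29 log2 units, near control level. For DptB, to which the rule did not extend because wild type 3 was not above the controls, the closest named genes were rdog, Ttd14 and CG42807 (r of 0.985, 0.985 and 0.983). The DptA probe set ranked 7 of 8378 others in its correlation with DptB (r = 0.977) and the Dro probe set 85 (r = 0.906). All points share the difference between the groups and its scan day, so these values describe 6 arrays and carry no test.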

How the data were processed

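The authors deposited 1 linear intensity per probe set and array. How it was summarised, background-corrected and scaled is not stated in the labels or files used here. Per the file headers the arrays were DrosGenome1. Fluidics module and scan day were read from the array description files, whose other settings were not used.

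The 44 array controls of 14010 probe sets were left out. log2 of the intensity plus 16 was quantile normalized, the lowest 40% by mean over all arrays were left out (8379 kept), and groups were compared with limma 3.58.1 in R 4.3.3 (lmFit, eBayes, two-sided, Benjamini-Hochberg over all 8379, threshold 0.05). Gene names came from the platform annotation (12443 probe sets with 1 gene, 327 with several) through current gene identifiers. Where a listed gene had several probe sets, the brightest stands for it. The fit was checked on simulated data. The number of arrays limits the precision.

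Members, lists, markers and tests were chosen with earlier results of these data known. Named were all members, pathway genes past the threshold and the 3 largest others per role, the comparison peptides, and the 3 genes most correlated with each member above control on all arrays. Promoter motifs were planned but not analysed here. Alternatives covered pseudocount, normalization, filter, variance model, log base, array weights, RNA quality, replicate and module blocks, and leaving out each array. Figures used matplotlib 3.10.9.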

Additional observations from a re-analysis of the deposited data

How the results depend on the processing

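DptB, DptA, Dro and Rel kept a positive difference under all 21 alternatives. Outside the natural log setting it ran over 4.20 to 5.96, 5.04 to 7.23, 2.69 to 4.86 and 1.24 to 1.78 log2 units. In the natural log setting it was 3.83, 4.42, 3.44 and 1.20, as differences of natural logs. The fitted values of Dro are set against a wild type reading below the controls. The count of members called went from 0 to 1, DptB in each case, with a pseudocount of 1 (adjusted p = 0.0452), the values as deposited (0.0316), 60% left out (0.0282), the variance trend (0.0374) and the natural log (0.0447, difference 3.83). Leaving out single arrays gave 0 to 1 members called, a members' median of -0.0059 to 0.18, 0 to 1 pathway genes called and 88 to 200 probe sets called. With 60% left out the members' median was 2.33, over 2 members. Pathway calls were 1 with 60% left out (Rel, adjusted p = 0.0384) and 1 with the 3' to 5' covariate (PGRP-SB1, 0.0396). Of all probe sets, 208 in the main setting, 122 passed with median centring, 102 without the filter, 387 with 60% left out, 93 with the 3' to 5' covariate and 37 with the 18S covariate. With the fluidics module as a block 0 passed. Only modules 1 and 2 held arrays of both groups, so that fit had few arrays from which to estimate the spread. Drs still differed by 9.32 in it (limma, adjusted p = 0.242), and the count of 0 is no measure of lost differences. With the replicate block 84 passed and DptB differed by 5.04 (adjusted p = 0.162). Deviations of same-numbered arrays correlated at 0.29, 0.05 and 0.30. Arrays of different numbers were not compared in this way, so whether the numbers pair the arrays was not tested. Mtk lost its call in 14 alternatives, among them no filter (adjusted p = 0.12) and the 18S covariate (0.266). Signs turned for Def (0.0689 with the module block, 0.12 without wild type 1, -0.72 to 0.12 over single arrays left out), AttD (-0.0059 without tim-MJD 2), PGRP-LF (-0.13 with the 18S covariate, -0.0546 with the module block), Uev1A (-0.0076 and -0.71 with the 3' to 5' and 18S covariates) and Drsl5 (-0.0044 without wild type 1, -0.0044 to 0.39 over single arrays left out). The cause was not tested, other than that 60% left out and no filter change the number of probe sets tested. The module block has the limit named above. Probe sets near the negative controls limit what can be read of AttD, CecB and the wild type level of DptB.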
